A study of Mus musculus with 28 samples.

Results

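The 39 genes of the mouse Hox clusters were examined, chosen as every row of the deposited table whose name is Hoxa, Hoxb, Hoxc or Hoxd followed by a number. They are 39 of 50600 genes, with 11 in Hoxa, 10 in Hoxb, 9 in Hoxc and 9 in Hoxd. RNA-seq was performed on 28 libraries, 2 for each of 14 groups, all from wild-type primary mouse embryonic fibroblasts (MEFs) of crosses between 129 mice and OG2 mice, which carry an Oct4-GFP reporter. Untreated MEFs and MEFs treated with p38i, which is SB203580, an inhibitor of the kinase p38, were collected before induction. The other 12 groups received retroviral Oct4, Klf4 and Sox2 (OKS) and were collected on days 1, 3, 5 and 7 of induction to iPSCs (induced pluripotent stem cells) in the chemically defined medium iCD1. In these groups cells had DMSO as the control, p38i during induction (p38i), or p38i only before induction (pre-p38i). The pre-p38i, p38i and DMSO groups were made to ask how the time of p38 inhibition affects reprogramming. No label names DMSO for the untreated MEFs, and retroviral vectors enter only dividing cells, which limits the cells that received the factors.

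HOX proteins are homeodomain transcription factors that give positional identity along the head to tail axis of the embryo. Genes of 1 cluster lie in the order of their paralogue number, from 1 to 13, and genes of low number are used in more anterior parts, those of high number in more posterior parts and in distal limbs. Fibroblasts keep the Hox pattern of their site of origin, and Polycomb proteins hold unused Hox genes silent while trithorax proteins keep used ones active.

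Each value is a whole number, and a library adds up to between 991287 and 992537, as TPM (transcripts scaled to a fixed library total, a level per gene length) rounded down would. Read depth is therefore unknown, and no counting interval or detection floor was computed. Between 12454 and 14170 genes had a value of at least 1 in a library, and replicates correlated at Pearson's r of 0.9824 to 0.9909 across genes. The labels call the cells fibroblasts. The summed value of 9 fibroblast markers was 10872 and 10650 in untreated MEFs, 1742 and 1836 on DMSO day 7, 2111 and 2138 with p38i and 1137 and 1091 with pre-p38i on day 7. Col1a1, Col1a2 and Fn1 gave most of each sum. Macrophage markers were present too, with 10 of them adding up to 293 and 282 in untreated MEFs, 193 and 203 on DMSO day 7, 214 and 187 with p38i and 45 and 34 with pre-p38i. The day 7 sums in DMSO and with p38i rested on Lyz2 and Cd68. Lyz2 was 98 and 109 in DMSO and 135 and 113 with p38i, and Cd68 was 36 and 33 and then 54 and 49. C1qa (13 and 12 against 3 and 2), C1qb (16 and 15 against 8 and 8), C1qc (14 and 17 against 6 and 7) and Adgre1 (8 and 9 against 4 and 3) were lower with p38i. The share of these cells in the Hox values was not tested. In such bulk samples, fewer cells of a type and less RNA per cell cannot be told apart.

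The Hox genes of these cells reached up to paralogue 11 in Hoxa, 9 in Hoxb and 10 in Hoxc, and took in little of the Hoxd cluster. At a minimum mean of 1 per library, 26 of 39 members passed and were tested: 10 of 11 in Hoxa, 8 of 10 in Hoxb, 6 of 9 in Hoxc and 2 of 9 in Hoxd. Of the 13 others, 9 were listed at 0 in all 28 libraries, namely Hoxa13, Hoxb1, Hoxb13, Hoxc12, Hoxc13, Hoxd1, Hoxd11, Hoxd12 and Hoxd13. Hoxc11 and Hoxd3 reached at most 1, Hoxd4 at most 2 and Hoxd10 at most 3. All 4 genes of paralogue 13, which shape the digits, tail and genital region, and both genes of paralogue 12 were thus at 0 from MEFs to day 7.

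The Hoxa cluster lies on chromosome 6, Hoxb on chromosome 11 at 96194316 to 96368256, Hoxc on chromosome 15 at 102921103 to 103036852 and Hoxd on chromosome 2 at 74668310 to 74765142 (GRCm38, coordinates of the deposited table). In untreated MEFs, the summed value of all Hox genes was 369.0 ± 7.07 (SD, n = 2). Hoxb gave 38.4% of this sum, Hoxc 32.1%, Hoxa 26.5% and Hoxd 2.98%. Hoxb9 had the highest value, 46 and 45, followed by Hoxc6 at 44 and 40. Strand is not stated for these libraries, so reads of antisense genes cannot be told apart from those of a Hox gene. Antisense genes overlap 52.9% of the exon bases of Hoxb3, 35.0% of Hoxa11, 27.3% of Hoxb2, 25.4% of Hoxa3, 20.4% of Hoxa7 and 16.0% of Hoxa4, and none of those of Hoxb9, Hoxc4, Hoxc6, Hoxc8, Hoxa5 and Hoxd8. On the same strand, Hoxc5 shares 5.37% of its exon bases with Hoxc10, and Hoxc10 shares 8.7% with Hoxc5.

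**Figure D1:**
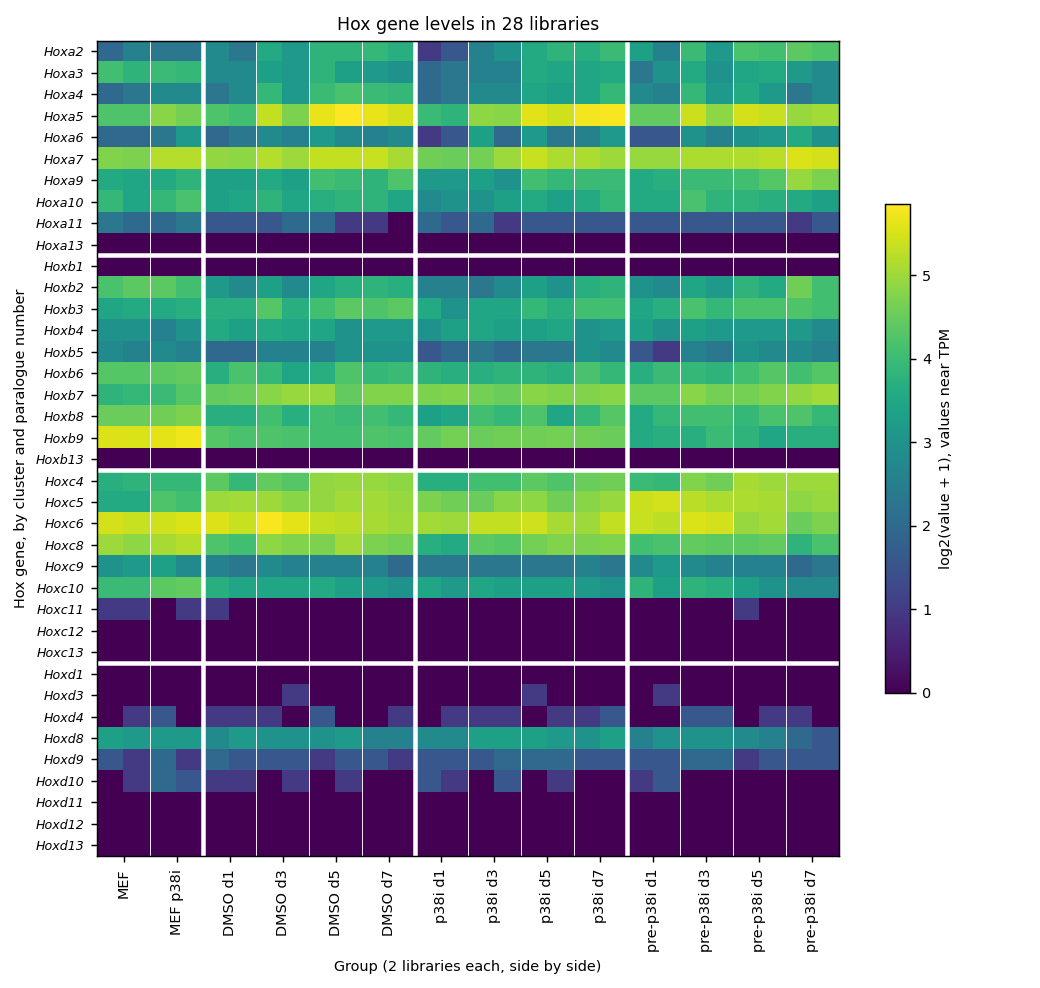
Values of the Hox genes (vertical, by cluster and paralogue number) in the 28 libraries (horizontal, by group), as colour on the scale of log2(value + 1). Paralogues 12 and 13 stay at 0 in every library and Hoxd, other than Hoxd8 and Hoxd9, at 3 or less, and the low and middle numbers of Hoxa brighten from day 1 to day 7.

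Promoter sequences from RefSeq (GRCm38.p6) were found for 22 of the 39 genes. The 250 bases before the start are shown for Hoxa2, Hoxa5 and Hoxc4, which rose during induction as described below, and for Hoxd13, which was at 0 throughout. Capitals mark each CG pair, since CG-dense promoters are those on which Polycomb proteins act. The windows are chr6:52164832-52165081 on the minus strand for Hoxa2, chr6:52204588-52204837 on the minus strand for Hoxa5, chr15:103034145-103034394 on the plus strand for Hoxc4 and chr2:74667975-74668224 on the plus strand for Hoxd13. The Hoxc4 gene of the deposited table starts further upstream, at 103018934, so other starts of it are not shown.
Hoxa2: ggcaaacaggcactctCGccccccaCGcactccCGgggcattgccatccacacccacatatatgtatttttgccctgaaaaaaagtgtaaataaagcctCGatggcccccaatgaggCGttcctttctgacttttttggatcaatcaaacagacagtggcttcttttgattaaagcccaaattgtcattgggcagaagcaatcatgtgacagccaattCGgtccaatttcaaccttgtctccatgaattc
Hoxa5: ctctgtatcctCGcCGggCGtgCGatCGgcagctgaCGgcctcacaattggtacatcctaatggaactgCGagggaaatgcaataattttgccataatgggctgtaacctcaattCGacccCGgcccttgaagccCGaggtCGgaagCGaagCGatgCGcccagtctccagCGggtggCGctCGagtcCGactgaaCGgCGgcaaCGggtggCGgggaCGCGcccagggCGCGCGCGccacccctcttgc
Hoxc4: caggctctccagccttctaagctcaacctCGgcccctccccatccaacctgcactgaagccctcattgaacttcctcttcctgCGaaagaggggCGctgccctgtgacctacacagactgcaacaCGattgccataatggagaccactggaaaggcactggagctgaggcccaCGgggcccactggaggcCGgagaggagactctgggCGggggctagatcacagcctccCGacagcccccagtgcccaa
Hoxd13: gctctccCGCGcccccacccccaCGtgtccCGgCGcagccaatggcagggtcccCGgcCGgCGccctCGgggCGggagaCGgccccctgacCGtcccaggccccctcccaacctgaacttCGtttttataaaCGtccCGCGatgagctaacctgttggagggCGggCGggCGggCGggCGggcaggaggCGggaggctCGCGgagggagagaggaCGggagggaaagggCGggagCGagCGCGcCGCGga
The Hoxd13 window holds 31 CG pairs and the Hoxa5 window 28, against 8 for Hoxc4 and 6 for Hoxa2. Among these chosen windows, a silent gene and a gene with a high level were thus alike in this feature, and the risers Hoxa5 and Hoxa2 were not. Over windows from 250 bases before to 50 after the start, the median ratio of observed to expected CG pairs was 0.594 in the 22 Hox promoters (from 0.257 to 1.02) and 0.389 in 27025 promoters of all genes. Within the Hox promoters it was 0.754 for the 9 genes below the minimum mean and 0.593 for the 13 above it. No test was made of this difference. The letters TGATTNAT, bound by PBX and HOX proteins together, were searched on both strands and, with the first listed window of each gene, occurred in 1 Hox promoter, that of Hoxa2 (4.55%), and in 3.36% of all promoters. A second window of Hoxd11 held them too, which made 2 of all 24 Hox windows (8.33%), against 3.22% of the 32851 windows of all genes. The letters TTTATNG, bound by CDX proteins, occurred in 9.09% of Hox promoters and 11.3% of all, and TATAAA in 13.6% and 14.2%, or over every window in 8.33% and 10.9%, and in 16.7% and 13.6%, with a match of TATAAA in a second window of Hoxa10. A match of letters is a description and no binding was measured.

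The first comparison asked how the Hox genes stand after 1 day of induction. Untreated MEFs also differ from the DMSO groups by the retroviral infection, the change of medium to iCD1 and the time in culture. In this and later comparisons of DMSO groups with untreated MEFs, these cannot be told apart from induction. From untreated MEFs to DMSO day 1, most of the called Hox genes lay in Hoxb and Hoxc, with Hoxb9 and Hoxb2 falling and Hoxc5 rising the most. By limma, 12 of 26 tested Hox genes were called (46.2%), against 55.5% of all 13230 genes tested. Of these, 4 were higher (36.6% of all genes were) and 8 lower (18.9% of all genes were). With quantile normalization, which moved the median of all genes by -0.15 on the log2 scale, the split became 2 higher and 14 lower, and the higher share of all called genes went from 65.9% to 49.6%. The calls were 6 of 8 genes in Hoxb, 5 of 6 in Hoxc, 1 of 10 in Hoxa and 0 of 2 in Hoxd, the last with 0 of 2 also at an unadjusted p under 0.05. Marker sums moved between the same libraries, with the 9 fibroblast markers at 5579 and 5291 on DMSO day 1. Of these, Twist1 rose from 74 and 74 to 189 and 179 and Col3a1 from 247 and 284 to 341 and 320, while the others fell. The 6 neural markers added up to 124 and 131 in untreated MEFs and 682 and 677 on day 1, nearly all from Stmn2 and Tubb3, with Sox1 and Elavl3 at 0. The part of these in the Hox values was not tested.

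Hoxb9, which patterns the thorax, was 46 and 45 in untreated MEFs and 19 and 17 on DMSO day 1. It fell by 1.29 on the scale of log2(value + 1), with SE 0.11 and an adjusted p of 5.01e-09. Hoxc5, a gene of the neck region, went the other way, from 11 and 11 to 31 and 32, a log2 fold change of 1.44 (SE 0.11, adjusted p = 5.08e-10). The libraries of these groups did not overlap for either gene. Both genes were near these levels later: on DMSO day 7 Hoxb9 was 18 and 17 and Hoxc5 was 32 and 30, and neither was called between days 1 and 7 (adjusted p = 0.803 and 0.878). Hoxb2, a hindbrain gene, was 17 and 20 in MEFs and 8 and 6 on day 1 (log2 fold change -1.29, adjusted p = 2.59e-05). Hoxa3, needed for the thymus and parathyroid, was 16 and 13 and then 6 and 6 (-1.14, adjusted p = 0.000159). Hoxc8 (-0.76) and Hoxb8 (-0.82) fell and Hoxb7 rose (0.63). These 7 calls held under every alternative tried. The other 5 did not hold without a single library: untreated MEF replicate 1 for Hoxb4, Hoxb5, Hoxc4 and Hoxc10, untreated MEF replicate 2 for Hoxb4, Hoxc9 and Hoxc10, DMSO day 1 replicate 1 for Hoxb4 and Hoxc4, and DMSO day 1 replicate 2 for Hoxc9 and Hoxc10, with adjusted p up to 0.246.

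From day 1 to day 7 in DMSO, 11 Hox genes rose, 6 of them in Hoxa and 6 of them of paralogues 1 to 4. Of 26 Hox genes, 14 were called (53.8%), against 54.6% of all genes, so the share called was that of the background. They were split into 11 higher (28.4% of all genes) and 3 lower (26.1% of all genes), and with quantile normalization into 11 higher and 7 lower. Among paralogues 1 to 4, 6 of 8 tested genes rose and 0 fell, with a median log2 fold change of 0.76. In the middle of the clusters, paralogues 5 to 8, 4 of 11 rose and 1 fell, with a median of 0.3. At the posterior end, paralogues 9 to 13, 1 of 7 rose and 2 fell, with a median of -0.16. The median of all genes was 0.03. By cluster, the median was 0.62 in Hoxa, where 6 of 10 rose and 1 fell, 0.28 in Hoxb, where 3 of 8 rose, -0.09 in Hoxc, where 2 of 6 rose and 2 fell, and -0.45 for the 2 genes of Hoxd, neither of which was called.

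Hoxa5, which acts in the neck, thorax and lung, was 18 and 16, 39 and 25, 50 and 57, and 50 and 44 over days 1, 3, 5 and 7. Its rise from day 1 to day 7 was 1.41 (SE 0.16, adjusted p = 3.71e-07), from a level on day 1 that overlapped that of untreated MEFs (18 and 18). Hoxa4, which patterns neck vertebrae, was over the same days 4 and 6, then 14 and 8, 15 and 17, and 15 and 14, a rise of 1.39 (SE 0.26, adjusted p = 0.000157). Hoxa2, needed for the second pharyngeal arch, was 6 and 4, 11 and 8, 13 and 13, and 14 and 12, a rise of 1.24 (SE 0.28, adjusted p = 0.001). For each of these genes the day 7 libraries lay above both day 1 libraries. Hoxc4, the most anterior gene of Hoxc, rose from 20 and 14 to 30 and 28 (0.76, adjusted p = 1.32e-05), Hoxb5 from 3 and 3 to 7 and 7 (1.00) and Hoxc8 from 18 and 16 to 25 and 24 (0.50). Exceptions among the anterior genes were Hoxa3 (0.28, adjusted p = 0.296) and Hoxb4 (-0.28, adjusted p = 0.194), neither of which was called.

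The other called genes rested on less. Hoxa9 (0.71) and Hoxc4 held with any 1 library left out but not when just the 2 groups compared were fitted (adjusted p = 0.0776 and 0.084). Hoxb2 (0.77) was not called without DMSO day 1 replicate 2 (adjusted p = 0.0657), Hoxb3 (0.62) without DMSO day 7 replicate 2 (0.059), and Hoxc6 (-0.41) without DMSO day 1 replicate 1 (0.0656). Hoxc10 (-0.49) was lost without DMSO day 1 replicate 1 or DMSO day 7 replicate 2, Hoxa7 (0.34) without DMSO day 1 replicate 2 or DMSO day 7 replicate 1, and Hoxa11 (-1.08) without either DMSO day 1 library or DMSO day 7 replicate 2, with adjusted p up to 0.115, 0.185 and 0.247.

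The log2 fold change from day 1 to day 7 went down with the paralogue number, with a Spearman's rho of -0.66 over the 26 genes. This is a description across genes of the same libraries, in which neighbours on a chromosome also share a number range, and it has no p-value. Within clusters rho was -0.71 in Hoxa (10 genes), -0.43 in Hoxb (8 genes) and -0.71 in Hoxc (6 genes). Over 10 alternatives it ranged from -0.66 to -0.58. For day 1 against untreated MEFs rho was weaker, at -0.24.

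**Figure D2:**
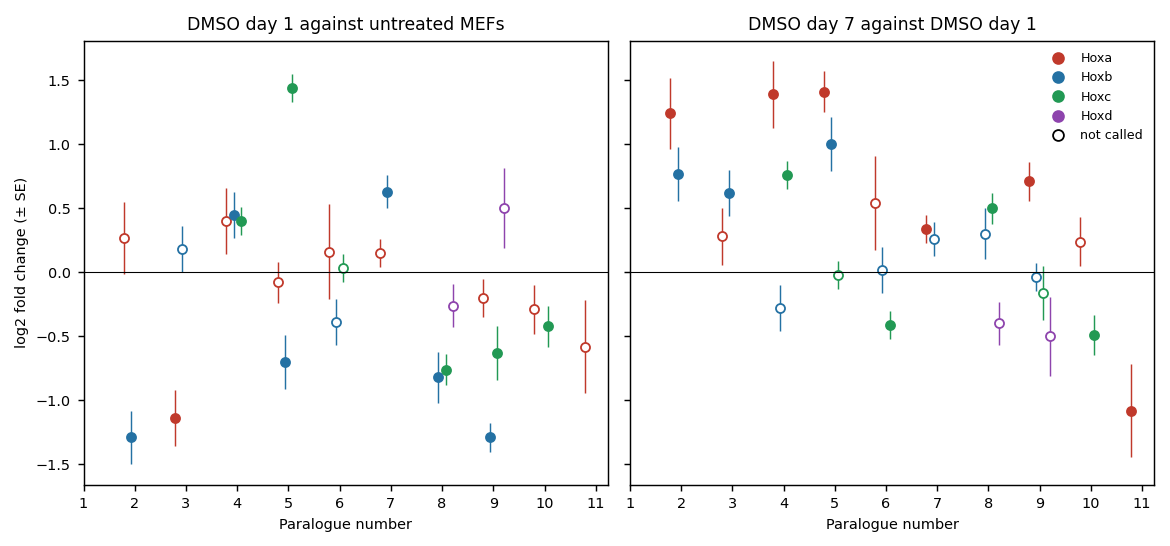
Log2 fold change (± SE, on log2(value + 1)) of tested Hox genes against their paralogue number, for DMSO day 1 against untreated MEFs and DMSO day 7 against DMSO day 1, coloured by cluster, with filled points for called genes. From day 1 to day 7 the genes with numbers up to 5 lie mostly above 0, and of those from 9 on Hoxa9 (0.71) is the one called higher.

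Over the whole course, from untreated MEFs to DMSO day 7, 19 of 26 Hox genes were called (73.1%), against 66.8% of all genes. They were 10 higher (43% of all genes) and 9 lower (23.8% of all genes). With quantile normalization, which moved the median of all genes by -0.26, from 0.20 to -0.06, they were 8 higher and 13 lower. By position, 5 rose and 2 fell of 8 in paralogues 1 to 4, 4 rose and 3 fell of 11 in paralogues 5 to 8, and 1 rose and 4 fell of 7 in paralogues 9 to 13. Among the rises were those of Hoxa4 (1.79), Hoxa2 (1.51), Hoxc5 (1.41) and Hoxa5 (1.33), and the largest falls were those of Hoxa11 (-1.66), Hoxb9 (-1.33) and Hoxc10, a gene of the lumbar region and hindlimb (-0.92). Hoxa11 was low throughout, at 4 and 3 in untreated MEFs and 1 and 0 on DMSO day 7, and was not called in the fit of the 2 groups alone (adjusted p = 0.0684). Hoxa3 (-0.86) and Hoxb2 (-0.53) fell although they lie at the anterior end. Of the 19 calls, 11 held under every alternative, and those of Hoxb2, Hoxb8, Hoxc6, Hoxc9 and Hoxa9 did not hold without a single library. These were untreated MEF replicate 1 for Hoxb8 and Hoxc6, untreated MEF replicate 2 for Hoxb2 and Hoxb8, DMSO day 7 replicate 1 for Hoxb2, and DMSO day 7 replicate 2 for Hoxa9, Hoxb2, Hoxb8 and Hoxc9, with adjusted p up to 0.177.

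By day 7 the sum of the anterior genes was higher, and that of the posterior genes lower, than in MEFs. The sum of paralogues 1 to 4 was 72 and 77 in untreated MEFs, and 70 and 62, 101 and 78, 115 and 117, and 116 and 114 over the 4 days in DMSO. The sum of paralogues 9 to 13 was 100 and 94 in untreated MEFs and lay between 55 and 64 in all 8 DMSO libraries of induction. So the posterior sum was lower by day 1 and the anterior sum was higher in both libraries from day 3 on. Hoxb9 made up most of the posterior difference. Without it the posterior sum was 54 and 49 in untreated MEFs, and 42 and 38, 44 and 40, 48 and 46, and 42 and 39 over the 4 days. Hoxa9, also of this class, stood higher than in MEFs on days 5 (16 and 15) and 7 (13 and 18), from 11 and 10. The mean paralogue number, weighted by value, was 6.60 ± 0.07 (SD, n = 2) in untreated MEFs, and 6.27, 6.11, 5.91 and 5.81 over the 4 days in DMSO. The Hoxa cluster rose from 27.5% of the Hox sum on DMSO day 1 to 39.0% on day 7, and Hoxc went from 38.6% to 30.7%. No test was made of these sums.

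With p38i during induction, the mean paralogue number was higher than in DMSO on each day: 6.49, 6.32, 6.13 and 5.99 for days 1, 3, 5 and 7. On none of the 4 days did its 2 libraries overlap those of DMSO, while the pre-p38i means were 6.23, 6.09, 5.83 and 5.82, with libraries below those of DMSO on days 1 and 5 and overlapping them on days 3 and 7. The sum of paralogues 1 to 4 with p38i was 45 and 46, 61 and 63, 90 and 86, and 96 and 107 in the same order, below both DMSO libraries each day. The sum of paralogues 9 to 13 was 56 and 56 with p38i on day 1 and 66 and 66 on day 7, against 61 and 55 and then 60 and 56 in DMSO. The arm with p38i was thus lower in the sum of anterior genes, and in that of posterior ones it overlapped DMSO on day 1 and was higher on day 7. Without Hoxb9 its posterior sum was 35 and 32, 35 and 35, 45 and 42, and 43 and 44 over the 4 days. These values lay below DMSO on days 1, 3 and 5 and above it on day 7. The lower sum of day 1 was not confined to anterior genes. Paralogues 5, 6, 7 and 8 each lay below DMSO then, with 46 and 45 against 61 and 61 for paralogue 6. All Hox genes added up to 264 and 261 with p38i against 330 and 315 on day 1. On day 7 they gave 408 and 437 against 429 and 405. For the mean paralogue number within 1 cluster, p38i and DMSO libraries overlapped in Hoxc on days 1 and 3 and in Hoxa on day 5.

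**Figure D3:**
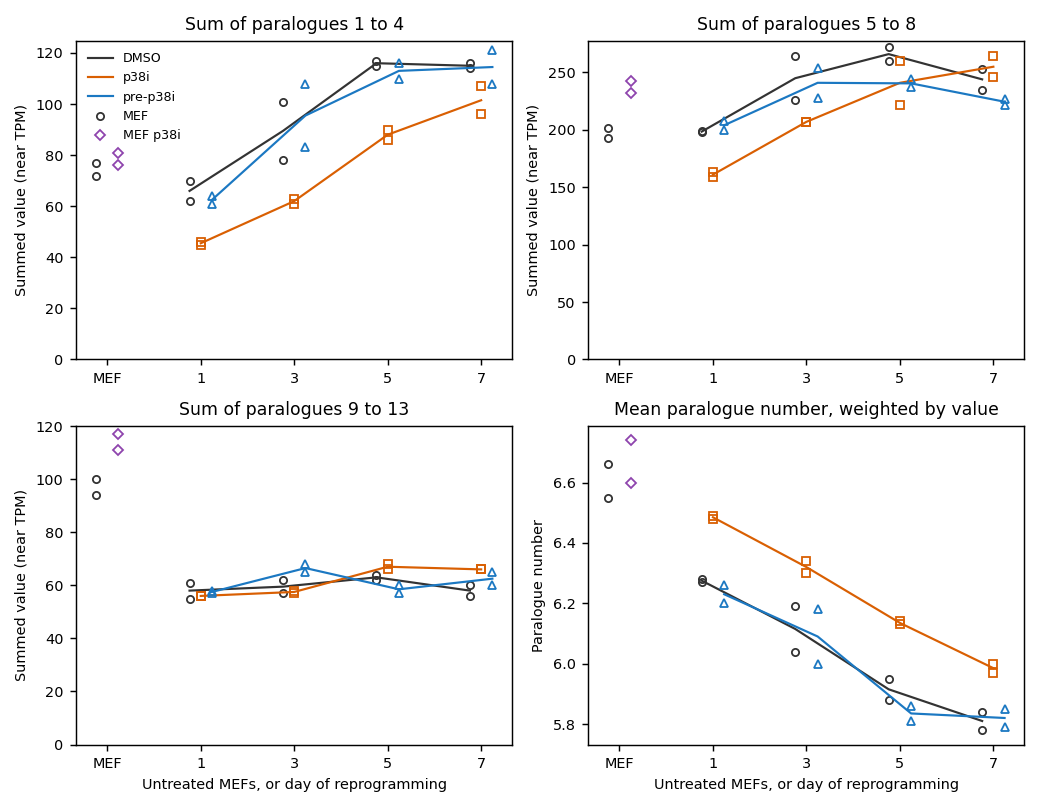
Summed values of the Hox genes of paralogues 1 to 4, 5 to 8 and 9 to 13, and the mean paralogue number weighted by value, in untreated MEFs, p38i-treated MEFs and on days 1, 3, 5 and 7 with DMSO, p38i or pre-p38i. Points are libraries and lines join the means of 2, and in the last panel the p38i libraries lie above the DMSO libraries on every day.

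Next, p38i was compared with DMSO on each day, which asks what the inhibitor does when present during induction. On day 1, 7 of 26 Hox genes were called (26.9%, against 16.1% of all genes), all 7 lower (12.6% of all genes were lower and 3.47% higher). On day 3, 6 were called (23.1%, against 21.4% of all genes), 1 higher (5.22%) and 5 lower (16.2%). On day 5, 2 were called (7.69%, against 26.6%), 1 higher (7.87%) and 1 lower (18.7%). On day 7, 5 were called (19.2%, against 34.1%), 3 higher (16.5%) and 2 lower (17.6%). The lower calls of the first days thus had a parallel in all genes, of whose calls 21.6% were higher on day 1. With quantile normalization, the Hox calls of day 1 were 1 higher and 2 lower, those of day 3 were 2 and 2, those of day 5 were 2 and 1, and the median of all genes moved by 0.11 on days 3 and 5. Spearman's rho of the log2 fold change with the paralogue number was 0.43, 0.55, 0.45 and 0.50 over the 26 genes on days 1, 3, 5 and 7, and between 0.31 and 0.61 under all alternatives, as a description. The clusters differed in it. Over the same days rho was 0.41, 0.5, 0.39 and 0.39 in Hoxa, 0.74, 0.86, 0.6 and 0.81 in Hoxb, and 0.54, 0.09, 0.43 and 0.6 in Hoxc.

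Hoxa2 had the largest difference of the first day, with 6 and 4 in DMSO and 1 and 2 with p38i. The log2 fold change was -1.27 (SE 0.28, adjusted p = 0.00391). It was not called without DMSO day 1 replicate 1 (adjusted p = 0.0724) or without p38i day 1 replicate 1 (0.0699), and 15.0% of its exon bases are shared with another gene on the same strand. By day 3 the values were 11 and 8 against 5 and 7 (-0.58, adjusted p = 0.156), and by day 7 they overlapped, at 14 and 12 against 12 and 15. The other genes called lower on day 1 were Hoxc8 (-0.52), Hoxc4 (-0.45), Hoxc6 (-0.43), Hoxc5 (-0.38), Hoxa7 (-0.33) and Hoxa3 (-0.65). Without DMSO day 1 replicate 1, 0 of the 26 Hox genes were called by limma and 10 had an unadjusted p under 0.05. On day 3 the calls included Hoxc8 (-0.45), Hoxc6 (-0.39), Hoxa3 (-0.66), Hoxb3 (-0.55) and Hoxb9 (0.35), and without DMSO day 3 replicate 1 again 0 were called, with 6 at an unadjusted p under 0.05.

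Hoxb9 was higher with p38i than with DMSO. With p38i it was 21 and 24, 22 and 23, 23 and 24, and 23 and 22 for days 1, 3, 5 and 7, while in DMSO it was 19 and 17, 18 and 17, 16 and 16, and 18 and 17. The groups did not overlap on any day. The difference was 0.31 at first (adjusted p = 0.0694, not called), 0.35 on day 3 (0.0316), 0.53 on day 5 (SE 0.11, adjusted p = 0.00152) and 0.35 on day 7 (0.0215). The call of day 5 held under every alternative, and those of days 3 and 7 were lost when any 1 of their 4 libraries was left out. Hoxc4 was lower with p38i, at 20 and 18 against 29 and 30 on day 5 (-0.61, SE 0.11, adjusted p = 0.00053) and at 22 and 23 against 30 and 28 on day 7 (-0.35, adjusted p = 0.0226). The day 5 call of Hoxc4 held with any 1 library left out but not in a fit of the 2 groups alone (0.0534), and that of day 7 was lost without DMSO day 7 replicate 1, p38i day 7 replicate 1 or p38i day 7 replicate 2.

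On day 7, Hoxa11, a gene of the forearm and of the uterus, was 1 and 0 in DMSO and 2 and 2 with p38i. Its log2 fold change of 1.08 (SE 0.36, adjusted p = 0.0246) fell to 0.58 without DMSO day 7 replicate 2 (adjusted p = 0.316), and 35.0% of its exon bases lie antisense to another gene, whose reads cannot be told apart here. Hoxd8 was 5 and 5 in DMSO and 7 and 9 with p38i (0.58, adjusted p = 0.0128, up to 0.151 without DMSO day 7 replicate 1, DMSO day 7 replicate 2 or p38i day 7 replicate 2). These calls are thus at the limit of what 2 libraries a group can show.

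The pre-p38i arm used the same DMSO libraries as controls, so its values are not independent of those above. On day 1, 3 of 26 Hox genes were called (11.5%, against 11.6% of all genes), with Hoxc5 higher (5.4% of all genes) and Hoxb9 and Hoxb5 lower (6.24% of all genes). Day 3 again had 3 calls (11.5%, against 20.6%), with Hoxa9 higher (13.8% of all genes) and Hoxb9 and Hoxc8 lower (6.87%). Day 5 had 2 calls (7.69%, against 25.6%), Hoxb9 and Hoxc8, both lower (11.3%), and 0 higher (14.3%). With quantile normalization it had 5 lower and 0 higher. Day 7 had 9 calls (34.6%, against 29.9%). Of these, 3 were higher (15.4% of all genes) and 6 lower (14.5% of all genes).

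Hoxb9 was lower with pre-p38i on every day, at 11 and 12, 12 and 15, 13 and 10, and 12 and 12 on days 1, 3, 5 and 7. Its libraries did not overlap those of DMSO given above. The log2 fold change was -0.60 (SE 0.11, adjusted p = 0.00127), -0.36 (0.0272), -0.45 (0.0049) and -0.51 (0.00174), in that order. The day 7 call held under every alternative. That of day 1 was lost in the fit of the 2 groups alone (0.113), that of day 5 without pre-p38i day 5 replicate 2 (0.121) and that of day 3 without DMSO day 3 replicate 1, DMSO day 3 replicate 2 or pre-p38i day 3 replicate 1 (up to 0.319). In Hoxa9, the paralogue of Hoxb9 in the Hoxa cluster, which also acts in blood progenitors, the day 7 values were 30 and 25 with pre-p38i against 13 and 18 in DMSO (0.80, SE 0.15, adjusted p = 0.000367). Of the 4 genes of paralogue 9, one was thus lower and one higher, and their sum was 47 and 43 against 38 and 39.

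Hoxa4 with pre-p38i was 6 and 5, 14 and 8, 11 and 8, and 4 and 6 over days 1, 3, 5 and 7. In DMSO it ended at 15 and 14, so that on day 7 it was lower by 1.39 on the log2 scale (log2 fold change -1.39, SE 0.26, adjusted p = 0.000459). Hoxa5 was 30 and 32 on day 7 against 50 and 44 in DMSO (-0.58, adjusted p = 0.0102, and up to 0.0905 without DMSO day 7 replicate 1 or pre-p38i day 7 replicate 1). Hoxa2 in the same libraries was 20 and 18 against 14 and 12 and was not called. Hoxc8 (-0.68, adjusted p = 0.000167), Hoxd8 (3 and 2 against 5 and 5, -0.79, adjusted p = 0.00147) and Hoxc6 (-0.43, adjusted p = 0.00646) were lower as well, and Hoxa7 (0.30, adjusted p = 0.0393) and Hoxb2 (0.58, adjusted p = 0.0416) higher. Hoxa4, Hoxa9, Hoxc8 and Hoxd8 held with any 1 library left out and were lost in the fit of the 2 groups alone (adjusted p from 0.0531 to 0.116). Hoxc6 was lost without DMSO day 7 replicate 1 or pre-p38i day 7 replicate 1 (up to 0.082), Hoxa7 without DMSO day 7 replicate 2 or either pre-p38i day 7 library, and Hoxb2 without either DMSO day 7 library or pre-p38i day 7 replicate 1.

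**Figure D4:**
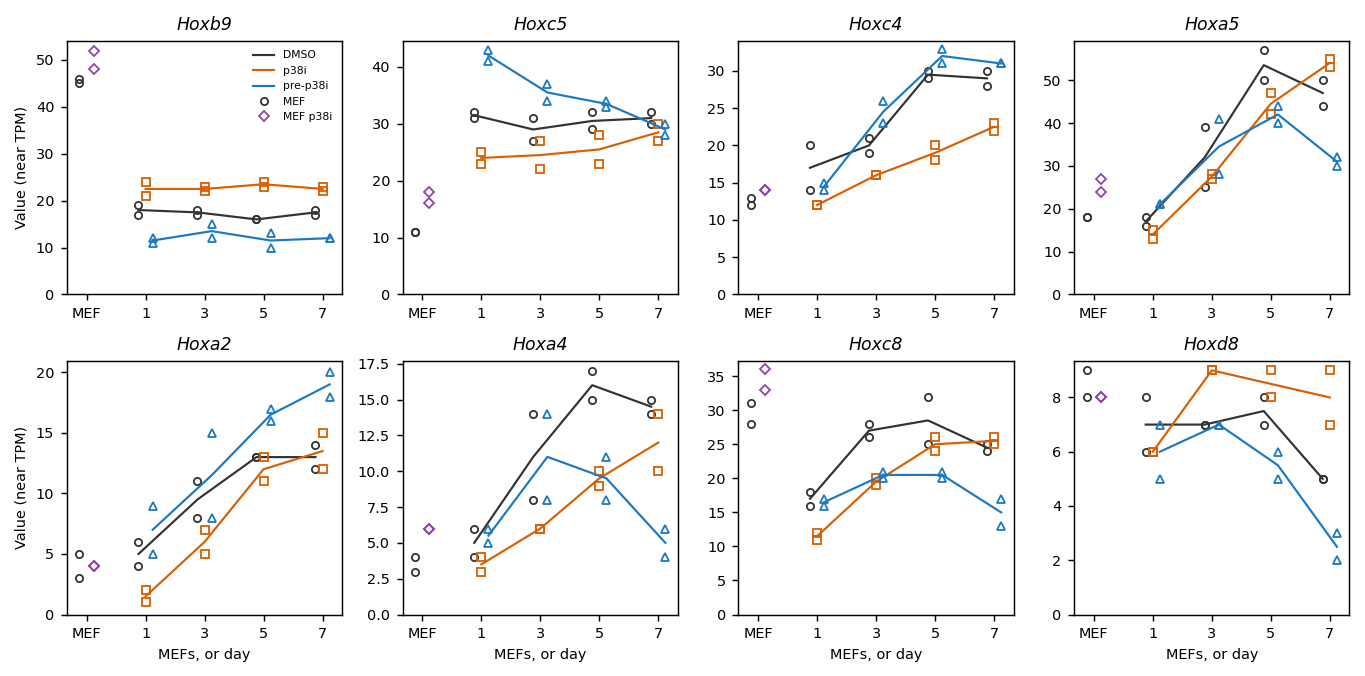
Values of 8 Hox genes in each library, in untreated MEFs, p38i-treated MEFs and on days 1, 3, 5 and 7 with DMSO, p38i or pre-p38i. Points are libraries and lines join the means of 2; Hoxb9 lies highest with p38i and lowest with pre-p38i on every day, and Hoxa4 with pre-p38i falls away from the other arms by day 7.

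The arms with p38i and pre-p38i share no control library and were compared directly, which sets the inhibitor during induction against the inhibitor before it. On days 1, 3, 5 and 7, 9, 11, 7 and 12 of 26 Hox genes were called (34.6%, 42.3%, 26.9% and 46.2%), against 28.2%, 42.2%, 47.5% and 54.3% of all genes. Those higher with p38i numbered 1, 1, 2 and 7 (8.25%, 10.7%, 16.3% and 24.8% of all genes) and those lower 8, 10, 5 and 5 (19.9%, 31.4%, 31.1% and 29.5% of all genes). With quantile normalization, which moved the median of all genes by 0.19 on day 3 and 0.15 on day 5, there were 3 higher and 3 lower calls for day 1, 2 and 4 for day 3, 7 and 1 for day 5, and 8 and 4 for day 7. More calls were thus lower than higher on day 3 under both scalings, while on day 1 they became even and on day 5 the majority turned.

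Single genes were firmer. Hoxb9 was higher with p38i by 0.91, 0.70, 0.98 and 0.85 on days 1, 3, 5 and 7 (SE 0.11, adjusted p = 4.33e-06, 4.39e-05, 5.99e-07 and 2.33e-06), and its 8 p38i libraries, from 21 to 24, all lay above its 8 pre-p38i libraries, from 10 to 15. It held under every alternative on days 1, 5 and 7 and on day 3 was lost in the fit of the 2 groups alone (0.0571). Hoxc4 was lower with p38i on days 3, 5 and 7 (-0.58, -0.72 and -0.45), and these 3 calls held under every alternative. Hoxc5 was 25 and 23 with p38i and 41 and 43 with pre-p38i on day 1 (-0.78, SE 0.11, adjusted p = 1.43e-05), and 27 and 30 against 28 and 30 on day 7, where it was not called. On day 7, Hoxd8 was 7 and 9 against 3 and 2 (1.37, SE 0.17, adjusted p = 1.27e-06), Hoxa5 was 53 and 55 against 30 and 32 (0.78, adjusted p = 0.000426) and Hoxa9 was 15 and 15 against 30 and 25 (-0.83, adjusted p = 9.18e-05). These 3 and Hoxa7 (-0.46) held under every alternative. Hoxa4 (1.12), Hoxc8 (0.74) and Hoxc6 (0.55) were higher with p38i on day 7, too, and held with any 1 library left out, but not under every alternative.

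Before induction, few Hox genes were called with p38i. In p38i-treated against untreated MEFs, 3 of 26 were called (11.5%, against 17.9% of all genes), all 3 higher (9.73% of all genes were higher and 8.15% lower). Called or not, 20 of 26 had a log2 fold change above 0 and 5 below, with a median of 0.13 against 0.0 for all genes. The sum of all Hox genes was 374 and 364 in untreated and 424 and 436 in treated MEFs, and it was not tested. Hoxc5 was 11 and 11 in untreated and 18 and 16 in treated MEFs (0.58, SE 0.11, adjusted p = 0.00061, and 0.0732 in the fit of the 2 groups alone). Hoxa7, the highest Hoxa gene on average over the libraries, was 26 and 25 and then 36 and 36 (0.48, SE 0.11, adjusted p = 0.00325), and this call held under every alternative. Hoxa5 was 18 and 18 and then 27 and 24 (0.48, SE 0.16, adjusted p = 0.0471), a call lost when any 1 of the 4 libraries was left out (adjusted p up to 0.246). Hoxb9, at 48 and 52 in treated MEFs, was not called (0.13, adjusted p = 0.481). Marker sums moved between the same libraries. The 9 fibroblast markers added up to 6942 and 7005 in treated MEFs, below the untreated sums given above, and the 10 macrophage markers to 197 and 191, again below them. The fibroblast fall rested mostly on Col1a1 (4164 and 3867, then 2200 and 2221), Col1a2 and Fn1. Col3a1, Thy1 and Pdgfrb fell as well, while Twist1 rose from 74 and 74 to 91 and 96, and Twist2 and Pdgfra overlapped. The 3 cartilage markers added up to 224 and 209 in untreated and 422 and 421 in treated MEFs. That sum rested on Col2a1, at 211 and 198 and then 413 and 413, while Acan was 7 and 6 and then 1 and 1. The part of these markers in the Hox values was not tested.

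The genes with the highest mean in each cluster were Hoxa7, Hoxb7, Hoxc6 and Hoxd8. Hoxa7 went from 29 and 28 on DMSO day 1 to 40 and 33 on day 7, 23 and 22 to 34 and 31 with p38i and 30 and 30 to 46 and 44 with pre-p38i. Hoxb7 was 13 and 14 in untreated MEFs and between 20 and 32 in all 24 libraries of induction. Hoxc6, a thoracic gene, was 46 and 40, 55 and 48, 39 and 37, and 33 and 31 over the 4 days in DMSO, so it was highest on day 3. With p38i Hoxc6 was 32 and 31, 39 and 39, 42 and 33, and 31 and 39, and with pre-p38i 40 and 38, 45 and 43, 30 and 32, and 22 and 25. Hoxd8 was 9 and 8 in untreated MEFs, 6 to 8 in DMSO up to day 5 and 5 and 5 on DMSO day 7.

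HOX proteins bind DNA together with TALE proteins such as PBX and MEIS. Of 9 TALE genes, 5 were higher and 2 lower on DMSO day 7 than in untreated MEFs (43% and 23.8% of all genes), with 3 and 3 by quantile normalization. Meis2 rose from 27 and 29 to 68 and 68 (1.25, adjusted p = 1.66e-08). Among upstream inputs of Hox genes, 4 of 7 tested were higher and 1 lower (2 by quantile normalization), beside 43% and 23.8% of all genes. Not all of this list rose. Rara went from 26 and 25 to 13 and 12, Rarg was 72 and 68 and then 73 and 71, and Aldh1a2, not tested, was 3 and 5 and then 0 and 0. Rarb, a retinoic acid receptor that retinoic acid itself induces, went from 1 and 1 to 30 and 24 (3.80, adjusted p = 9.11e-12). Cyp26b1, which degrades retinoic acid, went from 4 and 4 to 37 and 27 (2.71, adjusted p = 8.76e-09). Cyp26a1, an enzyme of the same kind, was listed at 0 in both untreated MEF libraries and was 29 and 25 on DMSO day 7. Cdx1, a posterior regulator of Hox genes, was listed at 0 in MEFs as well and was 15 and 10 in DMSO, 1 and 3 with p38i and 16 and 12 with pre-p38i on day 7.

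Most genes of the Polycomb complex PRC2 and of the trithorax group were lower with p38i than with pre-p38i on day 7. Of these, 9 of 11 PRC2 genes and 10 of 11 trithorax group genes and activators were called lower and 1 and 0 higher, against 29.5% lower and 24.8% higher of all genes. With quantile normalization 9 and 8 were lower. Of the 12 genes for PRC1, the other Polycomb complex, 3 were lower and 2 higher, with a median log2 fold change of -0.01. Of the genes for PRC2, the complex that methylates histone H3 at silent genes, 4, 5, 8 and 9 were lower with p38i than with DMSO on days 1, 3, 5 and 7 and 0 higher (12.6%, 16.2%, 18.7% and 17.6% of all genes were lower). With pre-p38i 1, 5, 8 and 7 were higher than with DMSO and 0 lower (5.4%, 13.8%, 14.3% and 15.4% of all genes were higher). With quantile normalization these counts were 1, 3, 7 and 9, and 1, 4, 8 and 7. Ezh2, its catalytic subunit, was 49 and 51 on DMSO day 7, 24 and 27 with p38i (-0.95, adjusted p = 2.68e-07) and 72 and 73 with pre-p38i (0.53, adjusted p = 0.00025). Jarid2, which guides PRC2, was 4 and 6 in untreated MEFs, 35 and 39 on DMSO day 7, 20 and 21 with p38i and 62 and 58 with pre-p38i. Against DMSO on day 7, 3 of the PRC1 genes were higher and 1 lower with p38i (16.5% and 17.6% of all genes) and 3 higher with pre-p38i (15.4%) (4 and 1, and 1 and 1, by quantile normalization). Of the trithorax group genes and activators, 5 were lower with p38i and 8 higher with pre-p38i than with DMSO on day 7, beside the same shares of all genes (5 and 7 by quantile normalization). Pluripotency markers moved with these arms: 8 of them added up to 81 and 93 on DMSO day 7, 10 and 11 with p38i and 153 and 149 with pre-p38i. The part of these changes in the Hox values was not tested.

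Homeobox genes of mesenchyme outside the clusters were lower after induction. Of 25 such genes, 15 were tested, and 14 of these were lower and 0 higher on DMSO day 7 than in untreated MEFs (23.8% and 43% of all genes), with a median log2 fold change of -1.85 (15 lower by quantile normalization). Prrx2 fell from 111 and 111 to 3 and 5 (-4.51, adjusted p = 1.31e-12). The sum of the 25 genes was 406 and 398 in untreated MEFs and 80 and 83 on DMSO day 7, whereas the sum of the 39 Hox genes was 374 and 364 and then 429 and 405. Most of the untreated sum of the 25 genes came from Prrx2 and from Prrx1, which was 181 and 175 and then 51 and 54. No test was made of these sums.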

How the data were processed

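RNA was enriched for poly-A, made into libraries with a VAHTS mRNA-seq kit and sequenced. The labels and the methods differ on the kit version and the RNA extraction. The submitters' processing notes name bcl2fastq, Bowtie2 2.2.5, RSEM 1.3.0 and the builds mm10 and hg38, without a role. The deposited scores are whole numbers. Their library totals (991287 to 992537) are those of TPM rounded down, so they were taken as TPM that the authors had scaled for length and library size. Rounding down leaves little precision at low values. TPM are shares of a total, so a rise of other genes lowers a gene's value.

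The 13230 of 50600 genes whose mean reached 1 were tested on log2(value + 1) by limma 3.58.1 (R 4.3.3; functions lmFit and eBayes, trend on), with all 14 groups in 1 model and no replicate block, in 18 comparisons. Genes with a Benjamini-Hochberg adjusted p under 0.05, over all genes tested, were called. Fold changes on this scale understate those of low genes. Nothing says that the 2 libraries of a group are separate cultures, so p-values measure the spread between these samples, which may be technical. An exact two-sided permutation test of 2 against 2 libraries cannot go below p = 0.333 and was not used. On simulated data for p38i against DMSO on day 7 (13230 genes), 199 of 200 changed genes were called, and 3.86% of calls were false. The changes set there were 1 or 2 in size on the log2 scale, in genes that were not low, and no other group was changed. Smaller changes and genes of low value, as in many of the Hox calls, were not simulated, so these rates do not apply to them. Over all genes tested, replicate numbers did not pair the libraries (correlations of deviations between -0.0838 and 0.0874 over 91 pairs).

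Values in every library were to be given for the genes with the highest mean in each cluster and for called genes that differed from a control by a log2 fold change of 1 or more, and for up to 4 called members of each other list. Other genes were added after their values were seen. Some genes that meet this rule are not reported here, and they stay in the counts and sums but not in the plots of single genes. The members and lists were chosen with earlier results of these data known. All 39 genes have the same coordinates in GENCODE M21, as do 92.5% of all genes of the table. Alternatives were all genes above 0, a minimum mean of 5, a pseudocount of 0.1, quantile normalization, the replicate number as a block, a model of the compared groups alone and each library left out in turn. Plots were drawn with matplotlib 3.10.9 in Python 3.11.15.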

Additional observations from a re-analysis of the deposited data

Results flagged for a closer look

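For 8 Hox genes, Hoxc8 in both arms, the difference between an arm and DMSO was not the same on day 7 as on day 1, by limma's test of the change of the difference (adjusted p over all genes). For p38i, 5 of 26 Hox genes were called (19.2%, against 21.6% of all genes), all 5 upward (14.1% of all genes). The changes were 0.58 for Hoxc8 (SE 0.16, adjusted p = 0.0157), 0.55 for Hoxc6 (adjusted p = 0.0172), 1.32 for Hoxa2 (SE 0.40, adjusted p = 0.0235), 0.76 for Hoxd8 (adjusted p = 0.0295) and 1.08 for Hoxa3 (adjusted p = 0.0157), so these genes stood lower against DMSO on day 1 than on day 7. None of the 5 held under every alternative. Without DMSO day 7 replicate 2, or without p38i day 7 replicate 2, limma called 0 of the 26 Hox genes, with 5 at an unadjusted p under 0.05 in each case.

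For pre-p38i, 4 of 26 were called (15.4%, against 16.7% of all genes), all 4 downward (9.43% of all genes). The changes were -1.52 for Hoxa4 (SE 0.37, adjusted p = 0.00742), -0.64 for Hoxc8 (adjusted p = 0.0101), -0.50 for Hoxc5 (adjusted p = 0.0279) and -0.87 for Hoxa5 (adjusted p = 0.012). Hoxa4 was 6 and 5 against 4 and 6 in DMSO on day 1, and 4 and 6 against 15 and 14 on day 7, and its call held under every alternative. Hoxc8 was not called without pre-p38i day 7 replicate 1 (adjusted p = 0.067), Hoxa5 without DMSO day 1 replicate 2 (0.0505) or DMSO day 7 replicate 1 (0.054), and Hoxc5 without either DMSO day 1 library, DMSO day 7 replicate 1, pre-p38i day 1 replicate 2 or pre-p38i day 7 replicate 1 (up to 0.0943). Both sets of changes use the same DMSO libraries.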

How the results depend on the processing

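Of 133 calls of Hox genes over the 18 comparisons, 40 held under every alternative and 0 turned direction. With a pseudocount of 0.1, 124 of 133 held, with no filter 118, with quantile normalization 102, with the replicate number as a block 120 and with only the compared groups fitted 55, while a minimum mean of 5 kept 126 of 126 calls that could be refitted. A fit to the compared groups alone has few degrees of freedom. It called 8 of 26 Hox genes for DMSO day 7 against day 1, and for p38i against DMSO 0, 1, 1 and 2 on days 1, 3, 5 and 7. For pre-p38i against DMSO it called 0, 1, 0 and 1, for p38i against pre-p38i 5, 3, 4 and 6, and for the change of the p38i-DMSO difference 2. Where it called 0, limma gave 10, 5 and 4 genes at an unadjusted p under 0.05, for p38i on day 1 and pre-p38i on days 1 and 5. Quantile normalization called 3 for p38i against DMSO on day 1, 5 for pre-p38i against DMSO on day 5 and 6 for p38i against pre-p38i on day 3. No filter gave 3 for p38i against DMSO on day 3, and a pseudocount of 0.1 gave 4 for p38i against pre-p38i on day 5. The causes of these moves were not tested beyond the fewer samples of the first.

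With 1 library left out, the counts of called Hox genes ranged from 2 to 3 for p38i-treated MEFs, 8 to 12 for DMSO day 1 against MEFs, 11 to 13 for day 7 against day 1 and 15 to 18 for day 7 against MEFs. They were 0 to 4, 0 to 7, 2 to 4 and 1 to 2 for p38i against DMSO on days 1, 3, 5 and 7, and 1 to 2, 0 to 1, 1 to 2 and 5 to 8 for pre-p38i against DMSO. For p38i against pre-p38i they were 5 to 10, 5 to 11, 4 to 5 and 9 to 10, and for the changes of the difference 0 to 5 with p38i and 2 to 6 with pre-p38i. The 0 for pre-p38i on day 3 came without DMSO day 3 replicate 2 or pre-p38i day 3 replicate 1, with 4 and 2 genes at an unadjusted p under 0.05. Where an arm was left with 1 library, it was assumed to vary like the other groups.

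Over all genes tested, same-numbered libraries did not deviate together. For the Hox genes this was not measured. On day 3 replicate 1 had the higher Hox sum in DMSO (427 against 361) and pre-p38i (430 against 376), but not with p38i (325 against 328). With the replicate number as a block within each time point, the counts were 4, 11, 14 and 18 for the comparisons of MEFs and DMSO in the order above, 6, 5, 3 and 5 for p38i, 2, 2, 3 and 7 for pre-p38i, 9, 12, 6 and 11 for p38i against pre-p38i and 5 and 3 for the changes of the difference. Read depth is unknown, so its limits could not be set, and values of a few units hold rounding.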

Other observations

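The Hox clusters hold other genes as well. Of 46 other genes of the table that lie between the first and last Hox gene of a cluster, 7 passed the filter. Hoxaas3, an antisense transcript in the Hoxa cluster, was listed at 0 in both untreated and both p38i-treated MEF libraries, was 4 and 3 on DMSO day 1 and 6 and 6 on DMSO day 7, and was 1 and 1 with p38i on day 1 and 5 and 5 on day 7. Hotairm1, a long noncoding RNA of the Hoxa cluster that retinoic acid induces, was 11 and 18 on DMSO day 7, 21 and 32 with p38i and 17 and 8 with pre-p38i. By limma it was not called for p38i against DMSO on that day (0.84, adjusted p = 0.132). It was called against pre-p38i (1.08, adjusted p = 0.0338), and its 2 untreated MEF libraries were 7 and 16. Hotair, a noncoding RNA of the Hoxc cluster, was listed at 0 in all 28 libraries.

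The nearest genes outside the clusters, 3 tested protein-coding genes on each side, number 24. From untreated MEFs to DMSO day 7, 9 of them were higher and 4 lower by limma, against 43% and 23.8% of all genes. Skap2, next to the Hoxa cluster, went from a mean of 27.0 to 69.5 (log2 fold change 1.33), and Snx10, on the same side, from 8.5 to 28.5 (1.64). Lnpk, next to the Hoxd cluster, fell from 26.5 to 14.5 (-0.82).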
